A study of Mus musculus with 17 samples.

Results

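Induced extraembryonic endoderm (iXEN) cells were compared with extraembryonic endoderm stem (XEN) cells after both had been moved to XEN medium, the medium in which XEN lines are usually kept. The comparison took 7 of the 17 mouse RNA-seq libraries by label alone: 4 libraries labelled iXEN grown in XEN medium, numbered 1, 2, 6 and 9, and 3 labelled XEN grown in XEN medium, numbered 1, 2 and 7. Both cell types carry the strain label CD-1, and all 7 cultures had spent 10 passages in embryonic stem cell (ESC) medium before their 5 passages in XEN medium. A second set of 4 iXEN and 3 XEN libraries with the same numbers had those last 5 passages in ESC medium instead, and 3 libraries of CD-1 mouse embryonic fibroblasts (MEF) came from 3 passages in MEF medium. Libraries were made with the TruSeq mRNA kit from total RNA. The series title ties iXEN cells to OSKM, the reprogramming factors Oct4 (Pou5f1), Sox2, Klf4 and Myc; the labels do not say whether a number marks one cell line across media or one derivation, so n counts libraries.

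XEN cells are stem cell lines of the primitive endoderm, the layer of the mouse blastocyst that goes on to line the yolk sacs. Gata6, Gata4, Sox17 and Sox7, transcription factors of that lineage, hold the cell state, and the receptor Pdgfra and the endocytic adaptor Dab2 mark it. In culture such cells lie close to parietal endoderm, the migratory arm of the lineage, which secretes a thick basement membrane of laminin, type IV collagen, nidogen and Sparc. The other arm, visceral endoderm, is an absorptive epithelium that makes serum proteins such as Afp, Ttr and the apolipoproteins.

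Depth was 37544512 to 45914262 counts in genes for the XEN libraries in XEN medium and 26368023 to 38523328 for the iXEN libraries. Levels are CPM (a gene's counts relative to all counts in genes of the library, on the per-million scale) scaled by the trimmed mean of M-values over all 17 libraries, and the 3 counts that a zero allows were at most 0.114 CPM in these 7 libraries. Several libraries stood apart from their own group or from the library of the same name in the other medium. Over 12768 genes with a mean of at least 1 CPM, correlations of log2 CPM were 0.8262 to 0.9453 among the 3 XEN libraries in XEN medium, 0.7918 to 0.9189 among the 4 iXEN libraries and 0.7531 to 0.9467 between the labels, and these ranges overlapped. The MEF libraries correlated at 0.9803 to 0.9871 with each other.

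Across media the labels and the profiles did not line up. Of the 7 libraries in XEN medium, 3 correlated best with the ESC medium library of the same cell type and number (XEN 7, iXEN 1 and iXEN 6), and the other 4 with a library of the other cell type label. XEN 1 and XEN 2 in XEN medium were closest to the library labelled iXEN 1 in ESC medium (r = 0.9321 and 0.9416), while iXEN 2 and iXEN 9 in XEN medium were closest to the library labelled XEN 1 in ESC medium (r = 0.9154 and 0.8816). Transcripts of the sex chromosomes did not keep to the numbers either. Xist, the RNA that coats an inactive X chromosome, measured 1091 CPM in XEN 7 in XEN medium and 716 CPM in XEN 7 in ESC medium, but 0.463 CPM in iXEN 9 in XEN medium against 2239 CPM in the library labelled iXEN 9 in ESC medium. Ddx3y, a Y-linked helicase gene, was at 21.7 CPM in iXEN 9 in XEN medium and 0.098 CPM under the same name in ESC medium, and at 0 CPM in iXEN 6 in XEN medium against 25.3 CPM. What lies behind these mismatches was not tested; every library below is named by its label, and none was moved to another group.

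**Figure D1:**
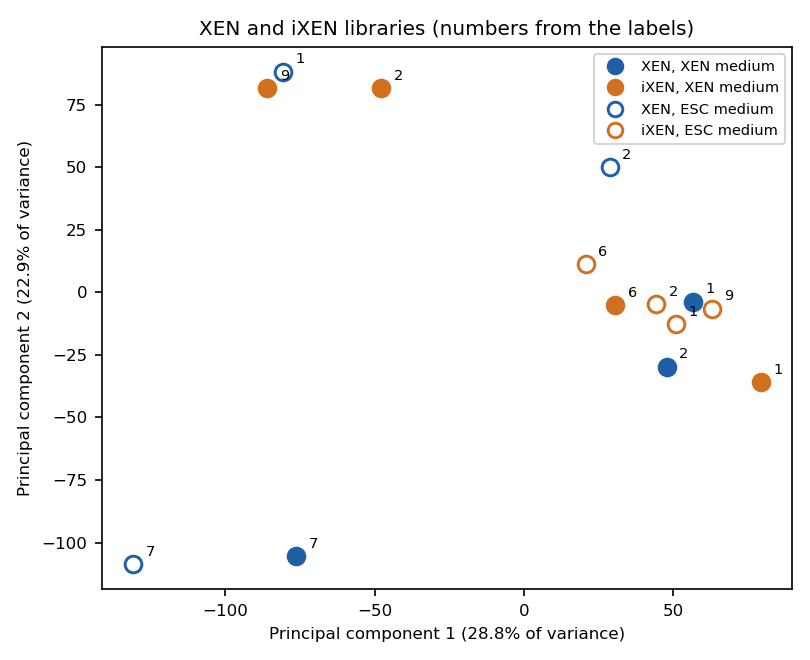
Principal components of log2 CPM in the 14 XEN and iXEN libraries; each point is 1 library with the number its label gives, filled for XEN medium and open for ESC medium, and the axes give the share of variance (28.8% and 22.9%). The filled points of iXEN 9 and iXEN 2 lie beside the open point of XEN 1 at the upper left. Both XEN 7 libraries lie at the lower left. XEN 1 and iXEN 6 in XEN medium lie among the open iXEN points. XEN 2 and iXEN 1 in XEN medium lie below the open iXEN points, with iXEN 1 also to their right.

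In XEN medium no gene passed the threshold of adjusted p 0.05 when iXEN was set against XEN. Of 13263 genes tested with edgeR's quasi-likelihood test and Benjamini-Hochberg adjustment, 0 passed (0% called), 544 (4.1%) had an unadjusted p below 0.05, and the smallest adjusted p was 0.174. DESeq2 called 75 of the same genes (0.565% called), 53 higher and 22 lower in iXEN, with 706 genes at an unadjusted p below 0.05; 51 of the 75 had CPM ranges that did not overlap between the labels. The estimated changes were mostly small, with 11194 genes (84.4%) below 1 on the log2 scale and a median size of 0.34, but the errors were wide. The 95% interval lay wholly within 1 log2 unit of zero for 2757 genes (20.8%), and the distance from the estimate to its bound had a median of 1.11, so for most genes the data allowed a difference of more than 1 log2 unit. The biological coefficient of variation was 0.523 within the XEN group and 0.548 within the iXEN group, against 0.195 among the MEF libraries.

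The regulators of the lineage were present under both labels, and the estimates for the genes named here lay within 1 log2 unit of zero, with wide intervals. Gata4, a zinc-finger activator of endoderm genes, measured 1272, 704 and 414 CPM in XEN 1, 2 and 7 and 583, 469, 621 and 562 CPM in iXEN 1, 2, 6 and 9. The iXEN libraries all fell inside the XEN range. Its log2 fold change (iXEN over XEN) was -0.50 (SE 0.39, 95% interval -1.39 to 0.39), and MEF libraries held 0.929, 1.43 and 1.3 CPM.

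Gata6, which acts upstream of Gata4 in primitive endoderm, measured 607, 379.6 and 205 CPM in the XEN libraries and 259, 223, 551 and 257 CPM in the iXEN libraries, with iXEN 6 standing above the other iXEN libraries and a log2 fold change of -0.29 (SE 0.46, 95% interval -1.34 to 0.76). Sox17, an HMG-box factor needed for endoderm, measured 335, 337 and 250.2 CPM in XEN and 318, 356, 335 and 144 CPM in iXEN, with iXEN 9 lowest and a log2 fold change of -0.086 (SE 0.35, 95% interval -0.89 to 0.72). Both genes overlapped between the labels. Pdgfra, the PDGF receptor that marks primitive endoderm, measured 878, 559 and 119 CPM in XEN and 406, 471, 467 and 209.7 CPM in iXEN, the lowest of the 7 being XEN 7. Dab2, an adaptor for endocytosis, measured 509, 512 and 387 CPM in XEN and 359, 329, 582 and 345 CPM in iXEN, again with overlap. Their log2 fold changes were -0.40 (95% interval -1.78 to 0.97) and -0.21 (95% interval -0.90 to 0.48).

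Sox7, the SoxF partner of Sox17, split the XEN group rather than the labels. It measured 272, 169 and 0.805 CPM in XEN 1, 2 and 7 and 219, 91.5, 185 and 130.0 CPM in the iXEN libraries, so XEN 7 held almost none while the other 6 libraries held 91.5 to 272 CPM. XEN 7 in ESC medium was as low, at 0.47 CPM. The log2 fold change was 0.10 (SE 1.19, 95% interval -2.63 to 2.83), and -0.49 without XEN 7. Foxa2, a forkhead factor of endoderm, measured 77, 109.9 and 162 CPM in XEN and 80.9, 78.4, 128 and 77.8 CPM in iXEN. Hnf4a, a nuclear receptor of visceral endoderm, measured 23.3, 14 and 23.4 CPM in XEN and 14.3, 13.6, 14 and 7.44 CPM in iXEN, with iXEN 9 lowest. Of the 17 endoderm regulators listed, 16 were tested, 0 passed the test and 11 lay below zero. Their median log2 fold change was -0.25 against 0.044 over all genes tested, and 0.091 without XEN 1. Sall4, a zinc-finger factor shared with embryonic stem cells, measured 154, 207 and 96.7 CPM in XEN and 222, 143, 357 and 278 CPM in iXEN. Foxq1, another forkhead factor, measured 55.6, 52.7 and 159.5 CPM in XEN and 88.7, 41.9, 40.6 and 22.1 CPM in iXEN. Both genes overlapped between the labels.

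**Figure D2:**
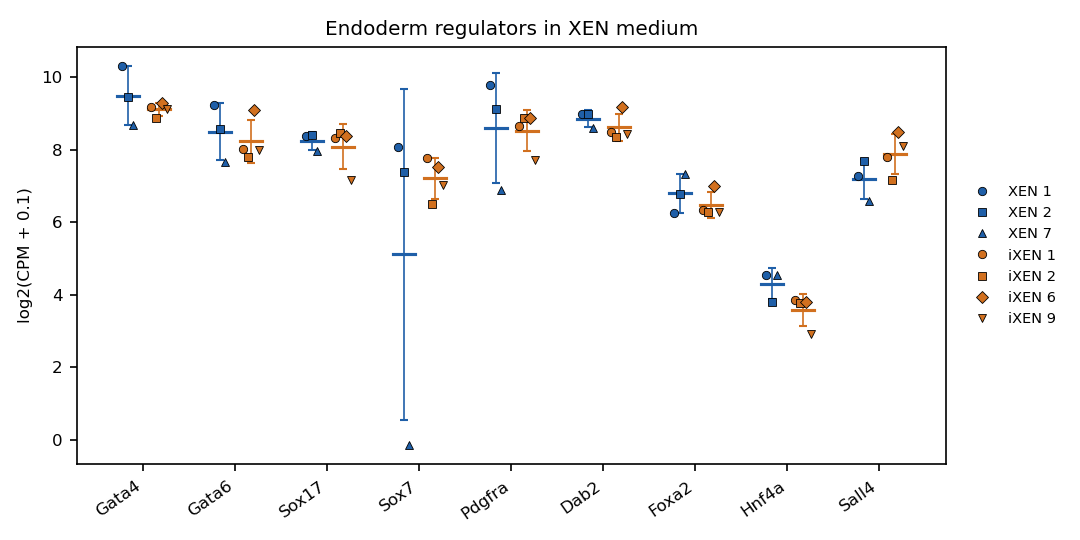
Levels of 9 endoderm regulators in the 7 libraries in XEN medium, as log2(CPM + 0.1) on the vertical axis; each point is 1 library, horizontal bars are group means and error bars 1 SD (n = 3 XEN, n = 4 iXEN). XEN and iXEN points overlap for all 9 genes, and the 1 point far from the rest is Sox7 in XEN 7 (0.805 CPM).

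Visceral endoderm genes were highest in different libraries: of the 15 tested, 5 were highest in XEN 7, 4 in XEN 1 and 3 in iXEN 6. Apob, the structural protein of lipoproteins, measured 1.81, 0.523 and 30.3 CPM in XEN and 0.038, 0.0984, 0.0902 and 0.463 CPM in iXEN. The XEN libraries all lay above the iXEN libraries, with a log2 fold change (iXEN over XEN) of -5.93 (SE 1.56, 95% interval -9.52 to -2.35); edgeR's adjusted p was 0.985 and DESeq2's 0.00223, and the log2 fold change was -2.69 without XEN 7. Afp, the fetal counterpart of serum albumin, measured 0.833, 2.64 and 21 CPM in XEN and 1.37, 1.11, 0.511 and 0.579 CPM in iXEN, with overlap. Ttr, a carrier of thyroid hormone and retinol, measured 33.5, 13.8 and 11.3 CPM in XEN and 2.43, 22.7, 18.4 and 7.67 CPM in iXEN. The genes of the endocytic receptors cubilin and megalin varied widely within each label. Cubn measured 353, 147 and 6.24 CPM in XEN and 25.2, 167, 159 and 46.2 CPM in iXEN. Lrp2, the megalin gene, measured 42.2, 138 and 17.1 CPM in XEN and 395, 14.5, 153 and 8.86 CPM in iXEN. Of 22 visceral genes 15 were tested, 0 passed, and 12 lay below zero, with a median log2 fold change of -0.59.

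Parietal endoderm and basement membrane genes took a large share of the counts under both labels. Sparc, a collagen-binding matrix protein, took the most counts of any gene in each group, with 26347, 13289 and 5247 CPM in XEN and 6224, 15195, 19882 and 13029.7 CPM in iXEN. The laminin chain genes Lama1, Lamb1 and Lamc1, which together encode laminin-111, were among the 10 with the most counts in each group. Lama1 measured 15483, 9370.4 and 3025 CPM in XEN and 5770.0, 7225, 6961 and 6568 CPM in iXEN, a range inside that of XEN, with a log2 fold change of -0.47 (SE 0.54, 95% interval -1.71 to 0.77). Nid1, which links laminin to type IV collagen, spread widely, at 7080.2, 1691 and 338 CPM in XEN and 489.8, 3546, 1026 and 892 CPM in iXEN. Of 20 parietal endoderm genes 20 were tested, 10 lay above and 10 below zero, 0 passed, and the median was -0.054. The XEN group itself was split, with XEN 1 the highest library for 9 of these genes and XEN 7 the lowest for 12. Of the 19 basement membrane genes tested 12 lay below zero, 0 passed, and the median was -0.47. The ranges of 2 of them did not overlap, with iXEN below, as for 2.39% of all genes tested, and nothing is read from this count. Both were at low levels except for Lamb3 in XEN 7. Lamb3, another laminin chain gene, measured 1.67, 2.17 and 23.4 CPM in XEN and 0.114, 0.197, 0.0301 and 0.29 CPM in iXEN. Hmcn1 measured 1.93, 1.29 and 2.71 CPM in XEN and 0.228, 0.394, 0.241 and 0 CPM in iXEN.

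Transcripts of the type IV collagen genes Col4a1 and Col4a2 were low in 1 library, XEN 1. Col4a1 and Col4a2, whose chains join in the commonest type IV collagen trimer, measured 6.1 and 3.13 CPM in XEN 1. Col4a1 measured 2019 to 15379.9 CPM and Col4a2 1194 to 8032 CPM in the other 6 libraries in XEN medium. The library labelled XEN 1 in ESC medium held 13141 and 9507 CPM, and the MEF libraries 779.6 to 1260.2 and 666 to 985 CPM, so XEN 1 in XEN medium was the lowest of all 17 libraries for both genes. Other matrix genes went either way in XEN 1. Of the 19 basement membrane genes tested, 5 were highest there among the 7 libraries (Lama1, Lamb1, Lamb2, Lamc1 and Nid1), as was Sparc, while Col4a4 and Hspg2 were lowest there, like Col4a1 and Col4a2. Col4a4, another type IV collagen chain, measured 0.147 CPM in XEN 1, 33.3 CPM in XEN 7 and 0.18 to 0.689 CPM in the rest. It was thus low in all of the libraries in XEN medium but XEN 7.

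The pair is shown by sequence because these genes stand head to head and are known to share one promoter. RefSeq's promoter windows, 250 bases before to 50 after each start in GRCm38.p6, were found for both; Col4a1 lies on the minus strand at chr8:11312777-11313076 and Col4a2 on the plus strand at chr8:11312555-11312854, and 78 bases belong to both windows. The Col4a2 window is given 5′ to 3′ on the plus strand, with the 78 shared bases (chr8:11312777-11312854) in capitals; the counts themselves were made on mm9.
Col4a2 promoter window: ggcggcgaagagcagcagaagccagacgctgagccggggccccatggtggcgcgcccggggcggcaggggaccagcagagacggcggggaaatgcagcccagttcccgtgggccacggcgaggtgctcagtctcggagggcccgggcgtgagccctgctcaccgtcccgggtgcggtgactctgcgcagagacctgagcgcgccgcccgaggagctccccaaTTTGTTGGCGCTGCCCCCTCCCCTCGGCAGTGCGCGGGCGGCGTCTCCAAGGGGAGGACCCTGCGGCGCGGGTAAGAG
The Col4a2 window held 33 CG dinucleotides, a number reached by 8.56% of the 32851 RefSeq mouse promoter windows of the same length, and the Col4a1 window 37, reached by 5.58%, against a median of 7. The dinucleotide reads the same on both strands. The protein-coding genes that flank the pair in the GRCm38.p6 annotation, looked up after the values were seen, were counted in XEN 1 within the range of the other 6 libraries. Irs2, an insulin receptor substrate on the Col4a1 side, measured 8.94, 31 and 12.1 CPM in XEN and 11.5, 10.2, 4.27 and 4.84 CPM in iXEN. Rab20, a small GTPase gene on the Col4a2 side, measured 3.75, 13 and 8.38 CPM in XEN and 7.37, 4.21, 4.0 and 2.37 CPM in iXEN, with the lowest value in iXEN 9.

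Between the labels, Col4a1 had a log2 fold change of 1.12 (SE 1.48, 95% interval -2.27 to 4.51) and Col4a2 of 0.89 (SE 1.51, 95% interval -2.57 to 4.36), and without XEN 1 these were 0.53 and 0.30. The cause of the low counts in XEN 1 was not tested.

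**Figure D3:**
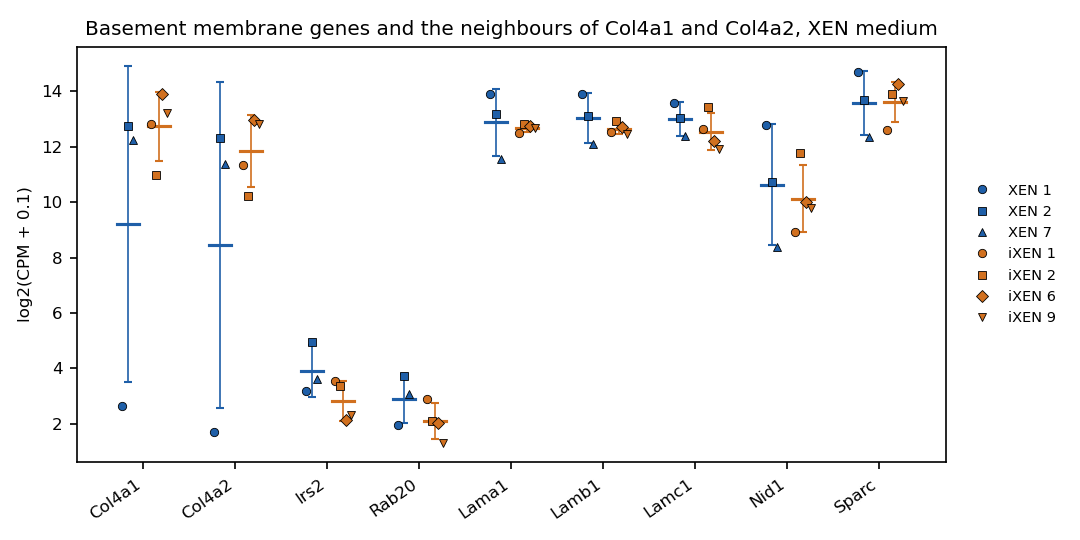
Type IV collagen genes, their chromosomal neighbours Irs2 and Rab20, and further basement membrane genes in the 7 libraries in XEN medium, as log2(CPM + 0.1); each point is 1 library, horizontal bars are group means and error bars 1 SD (n = 3 XEN, n = 4 iXEN). XEN 1 lies far below all other libraries for Col4a1 (6.1 CPM) and Col4a2 (3.13 CPM) and at or near the top for Lama1, Lamb1, Nid1 and Sparc.

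The fibroblast genes, taken as a sum, were high in iXEN 2 and iXEN 9 and low in the other 5 libraries. Col1a1, a chain of the type I collagen of fibroblasts, measured 0.294, 0.468 and 0.353 CPM in XEN and 0.114, 393, 0.18 and 391 CPM in iXEN. The iXEN libraries thus fell into a high pair, iXEN 2 and 9, and a low pair, iXEN 1 and 6, and MEF libraries held 12934, 12929.7 and 17288 CPM. The 26 listed fibroblast genes summed to 152, 3951, 250.3 and 3575 CPM in iXEN 1, 2, 6 and 9 and to 154, 156 and 84.1 CPM in XEN 1, 2 and 7, against 59884 to 73698 CPM in MEF. In bulk RNA, fewer cells of a type and less RNA per cell cannot be told apart.

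Of the 26 genes 9 were too low for the test, and the 17 tested lay above zero with a median log2 fold change of 4.78, yet 0 passed edgeR's test. DESeq2 called Col1a1 (adjusted p 0.00409) and Col6a3, a chain of microfibrillar type VI collagen (adjusted p 0.0269). Without iXEN 2 and 9, 13 of the genes were tested, and Col1a1, with a log2 fold change of -1.32 against 9.08 with them, was their median. The 6 genes with the largest spread among iXEN libraries all followed this split. Besides Col1a1 they were Col1a2, the partner chain of type I collagen, at 0.076, 889, 0.0301 and 461 CPM in iXEN 1, 2, 6 and 9, and Col3a1, of type III collagen, at 0.076, 358, 0 and 88.4 CPM. Tnc, the matrix glycoprotein tenascin-C, measured 0, 381, 0 and 30.8 CPM. Cav1, the caveolae coat protein, measured 0.038, 367, 0.12 and 128 CPM, and the highest library was iXEN 2. Cd34, a sialomucin of progenitor cells, measured 0.038, 80.9, 0.0602 and 679 CPM, and the highest was iXEN 9.

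iXEN 2 and iXEN 9 differed from each other as well. Thy1, a surface glycoprotein used to mark fibroblasts, measured 163 CPM in iXEN 2 and 0.203 CPM in iXEN 9, and Postn, a matrix protein of fibroblasts, 189 and 0.0579 CPM. Ly6a, which encodes the surface protein Sca-1, measured 113 CPM in iXEN 2 and 3536 CPM in iXEN 9. Fn1, the gene of fibronectin, measured 37.2, 1543, 26.7 and 401 CPM in the iXEN libraries and 22.8, 43.4 and 49.5 CPM in XEN. The regulator Snai2, a repressor active in epithelial-mesenchymal transition, measured 0.304, 31.6, 0.18 and 24.6 CPM in iXEN and 0.416, 0.275 and 1.75 CPM in XEN. Endoderm regulators were expressed in both libraries (summed 2466 CPM in iXEN 2 and 2144 CPM in iXEN 9, against 1878 to 4651 CPM in the other 5 libraries). The share of fibroblast cells, if any, in these cultures was not tested.

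**Figure D4:**
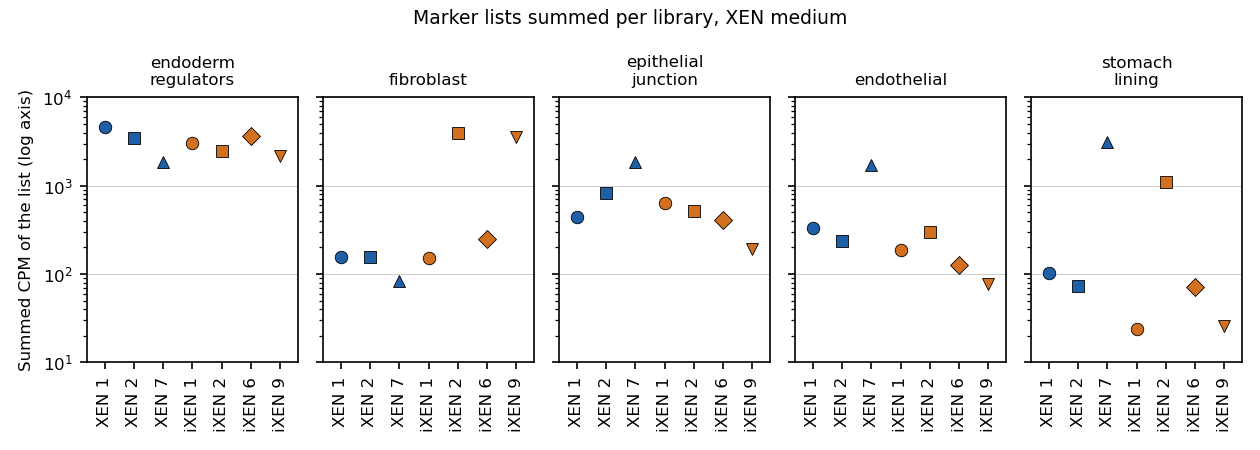
Summed CPM (log axis) of 5 marker lists in each of the 7 libraries in XEN medium, 1 point per library, blue for XEN and orange for iXEN. The fibroblast panel shows iXEN 2 and iXEN 9 at 3951 and 3575 CPM above 5 libraries at 84.1 to 250.3 CPM, and XEN 7 tops the epithelial junction, endothelial and stomach lining panels.

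The reprogramming factor genes did not separate the labels. Klf4 measured 474, 234 and 132 CPM in XEN and 71.8, 281, 320.2 and 124 CPM in iXEN, with a log2 fold change of -0.48 (SE 0.60, 95% interval -1.86 to 0.91). Myc measured 29.3, 40.8 and 49.2 CPM in XEN and 83.4, 58.8, 24.2 and 79.7 CPM in iXEN, with a log2 fold change of 0.64 (SE 0.45, 95% interval -0.38 to 1.66). Both overlapped between the labels. Pou5f1 measured 4.43, 0.605 and 0.471 CPM in XEN and 0.57, 1.38, 0.632 and 58.4 CPM in iXEN. Sox2 measured 0.049, 0 and 0 CPM in XEN and 0.038, 0.0738, 0 and 48.2 CPM in iXEN. The high values of both genes belonged to iXEN 9 alone, and Sox2 was filtered out as too low in the other libraries. Nanog, which with these genes sustains pluripotency, stayed at 0.881 to 1.65 CPM in all 7 libraries. Of the 20 pluripotency genes 11 were tested, 0 passed, and their median was -0.015. Counts do not separate endogenous transcripts from those of a transgene, and that was not tested.

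Several genes of epithelia, vessels and the stomach lining were highest in XEN 7, among them 12 of the 19 epithelial junction genes tested. The keratin list also holds the other filament genes Vim, Des and Nes. It summed to 4356 CPM in XEN 7 and to 5871 CPM in iXEN 9. Of its members, Krt8, Krt18 and Krt19 were highest in XEN 7. Krt7 and Vim were highest in iXEN 9, and Krt18 was lowest there. Krt19, a simple-epithelium keratin, measured 1.03, 69.6 and 708 CPM in XEN and 70.0, 11.1, 4.45 and 11.7 CPM in iXEN. Cdh1, the epithelial cadherin, measured 4.7, 25.3 and 164 CPM in XEN and 10.9, 0.541, 0.692 and 0.492 CPM in iXEN. Vwf, a clotting glycoprotein of vessels, measured 21, 11.2 and 649 CPM in XEN and 1.9, 18.4, 5.23 and 2.81 CPM in iXEN. For all 3 genes the highest of the 7 libraries was XEN 7. Upk3b, a uroplakin of mesothelium and urothelium, measured 104 CPM in XEN 7 and 0 to 0.521 CPM elsewhere in XEN medium. Gkn1, a secreted stomach protein, measured 12.1, 9.49 and 965 CPM in XEN and 2.16, 292, 14.6 and 2.58 CPM in iXEN, so that iXEN 2 was also high. Ctse, an aspartic protease of the stomach named after its values were seen, measured 84 CPM in XEN 7 and 0 to 0.197 CPM in the rest. Enpep, an aminopeptidase gene, ran the other way, with 0.255 CPM in XEN 7 and 64.9 to 370.1 CPM in the rest.

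Of the 19 epithelial junction genes tested 18 lay below zero in iXEN, with a median log2 fold change of -1.71, and 0 passed. Without XEN 7 the median was -0.53. On the iXEN side, iXEN 9 was the lowest of the 7 libraries for 15 of the 19 genes. The list summed to 192 CPM in iXEN 9, against 411 CPM in iXEN 6, the next lowest, and 1855 CPM in XEN 7. Dsp, a plaque protein of desmosomes, measured 45, 48.9 and 203 CPM in XEN and 32.5, 23.1, 29.2 and 11.3 CPM in iXEN, so all iXEN libraries lay below all XEN libraries. Of the 10 endothelial genes tested 8 lay below zero, with a median of -1.70, and -0.066 without XEN 7. Tek, the angiopoietin receptor, measured 117, 96.4 and 358 CPM in XEN and 71.2, 81.2, 49.1 and 32.6 CPM in iXEN. Kdr, a VEGF receptor, measured 4.41, 4.02 and 8.48 CPM in XEN and 0.342, 2.34, 2.14 and 0.579 CPM in iXEN. Neither overlapped between the labels. Krt8, a keratin of simple epithelia, measured 804, 1109 and 1236 CPM in XEN and 810.0, 479, 919 and 639 CPM in iXEN, with overlap.

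CPM ranges did not overlap for 278 genes with iXEN above (2.1% called) and 317 genes with iXEN below (2.39% called); these counts are a description, and none of the genes passed edgeR's adjustment. The 3 genes of smallest adjusted p, 0.174 each, were Gm8615, Arsi and Xlr3a. Gm8615, annotated as a transcribed pseudogene, measured 29.5, 23.2 and 23.4 CPM in XEN and 0.19, 0.0738, 0 and 0.0869 CPM in iXEN, with a log2 fold change of -8.16 (SE 0.91, 95% interval -10.24 to -6.07). Reads of its parent gene could be split with it. Arsi, a sulfatase family gene, measured 0.049, 0 and 0 CPM in XEN and 33.4, 11, 23.2 and 9.87 CPM in iXEN. The XEN libraries held 2 counts in all against 2439 in iXEN. Relative to the pooled counts in genes of each group, without the scaling of CPM, the ratio was 1092. Its exact 95% counting interval was 302 to 9026, which covers counting error only and not the spread between libraries. Xlr3a, an X-linked gene of a multicopy family whose copies may share reads, measured 38.5, 46 and 41.8 CPM in XEN and 2.85, 4.26, 5.66 and 1.8 CPM in iXEN, with a log2 fold change of -3.53 (SE 0.44, 95% interval -4.54 to -2.51).

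Slco3a1, an organic anion transporter, measured 0.0245, 0.275 and 0.0589 CPM in XEN and 11.1, 45.3, 18.8 and 36 CPM in iXEN. Prnp, the prion protein gene, measured 139.9, 189.6 and 320.0 CPM in XEN and 1643, 2725, 5342 and 966 CPM in iXEN. Slc16a3, a lactate exporter, measured 1.62, 3.08 and 1.3 CPM in XEN and 18.5, 41.5, 9.05 and 23.3 CPM in iXEN. In all 3 genes the lowest iXEN library lay above the highest XEN library. Prnp had a log2 fold change of 3.62 (SE 0.69, 95% interval 2.03 to 5.20), with an edgeR adjusted p of 0.956 and a DESeq2 adjusted p of 1.77e-06. The class I histocompatibility genes H2-Q10 and Gm8909, whose reads may be shared within the family, lay on opposite sides. H2-Q10 measured 0.367, 0.11 and 0.216 CPM in XEN and 9.3, 20.1, 9.51 and 4.98 CPM in iXEN. Gm8909 measured 2.15, 1.13 and 2.61 CPM in XEN and 0.114, 0.197, 0.211 and 0.145 CPM in iXEN. The remaining genes were higher in every iXEN library than in any XEN library. Zfp575, a zinc-finger gene, measured 0.637, 0.193 and 0.295 CPM in XEN and 10.4, 30.6, 178 and 67.4 CPM in iXEN. Ppm1l, a protein phosphatase gene, measured 1.84, 0.825 and 0.982 CPM in XEN and 16.1, 15.3, 10.7 and 9.01 CPM in iXEN. These 10 genes were named after their values were seen, as those of smallest p.

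In ESC medium all 10 had an estimate of opposite sign between the libraries labelled iXEN and XEN, mostly with wide error. Of the 10, 2 (Zfp575 and Prnp) had an unadjusted p below 0.05 in edgeR there, the others up to 0.772, and 0 passed the adjustment (smallest adjusted p 0.355). Taking for each gene the point midway between the closest XEN and iXEN libraries in XEN medium on the scale of log2(CPM + 0.1), the libraries labelled XEN 1 and XEN 2 in ESC medium lay on the iXEN side for 10 of 10 genes, and those labelled iXEN 1, 2 and 9 on the XEN side for 9 of 10. XEN 7 and iXEN 6 kept their side, for 9 and 8 of 10 genes. Prnp, for example, measured 4453, 2308 and 131 CPM in the libraries labelled XEN 1, 2 and 7 in ESC medium and 322, 274, 871 and 249 CPM in those labelled iXEN 1, 2, 6 and 9. The MEF libraries lay on the iXEN side for 8, 6 and 9 of the 10 genes. Of the 75 genes DESeq2 called, 68 were tested in ESC medium and 54 of these had the opposite sign there.

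**Figure D5:**
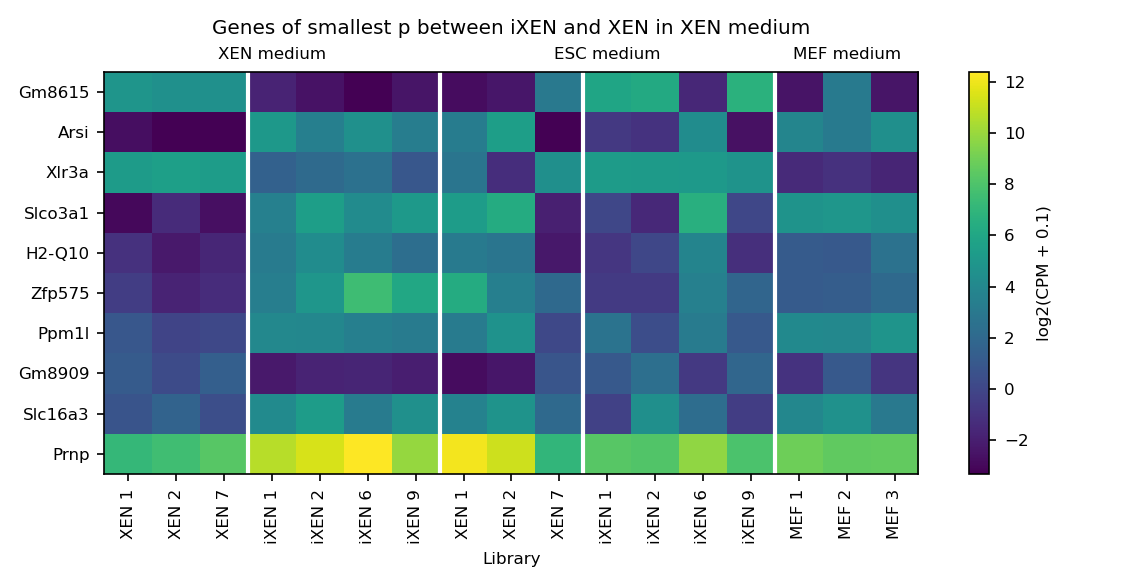
The 10 genes of smallest p between iXEN and XEN in XEN medium (rows) in all 17 libraries (columns, by label and number), coloured by log2(CPM + 0.1). Within XEN medium the 3 XEN columns differ from the 4 iXEN columns in every row; in ESC medium the XEN 1 and XEN 2 columns resemble the iXEN columns of XEN medium, and the iXEN 1, 2 and 9 columns resemble the XEN columns.

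The change of the difference with the medium was tested across all 14 libraries as an interaction. Of 14357 genes 0 passed (0% called), 2131 (14.8%) had an unadjusted p below 0.05, the smallest adjusted p was 0.221, and DESeq2 called 466. In ESC medium alone 0 of 12944 genes passed edgeR's test (0% called), with 1770 (13.7%) at an unadjusted p below 0.05. The 6 genes of smallest interaction p were AA465934, Gm11127, Xlr5b, Ccdc85b, Zfp575 and Galnt11. Galnt11, an enzyme of O-linked glycosylation, measured 44.7, 31.8 and 29 CPM in XEN and 25.9, 22.4, 13.9 and 9.12 CPM in iXEN in XEN medium, and 16.3, 19.3 and 10.7 CPM in XEN and 49.1, 47.5, 37.9 and 44.2 CPM in iXEN in ESC medium. Xlr5b, an X-linked multicopy gene, measured 2.35, 2.2 and 0 CPM in XEN and 0, 0.0246, 0 and 0 CPM in iXEN in XEN medium, and 0, 0 and 0 CPM in XEN and 2.56, 2.35, 5.4 and 0.457 CPM in iXEN in ESC medium. Col1a1 in ESC medium measured 2403, 137 and 0.287 CPM in the libraries labelled XEN 1, 2 and 7 and 4.94 to 7.77 CPM in the 4 iXEN libraries, so XEN 7 lay below all of these. The fibroblast list summed to 10412, 775 and 113 CPM in those XEN libraries and to 75.8 to 404 CPM in the iXEN libraries.

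Growth, signalling and metabolic genes showed no call in edgeR, and several of their highest values belonged to iXEN 2 or iXEN 9, whose fibroblast transcripts are given above; the part of these transcripts in the values was not tested. The 26 cell cycle genes were all tested and had a median log2 fold change of -0.21, with 18 below zero. Top2a, the topoisomerase of dividing cells, measured 675, 585 and 767 CPM in XEN and 789, 255, 446 and 234 CPM in iXEN, with iXEN 2 and iXEN 9 lowest. Ccnd1, the gene of cyclin D1, measured 1.3, 11.1 and 111 CPM in XEN and 5.85, 125, 3.64 and 794 CPM in iXEN, with iXEN 9 highest. Cdkn2a, a cell cycle inhibitor locus, measured 22.5, 31.2 and 62.8 CPM in XEN and 23.3, 258, 75.8 and 213 CPM in iXEN, with iXEN 2 and iXEN 9 highest. Of the 12 Wnt genes tested 9 lay above zero, with a median of 1.17 (-0.57 without iXEN 2 and 9). Wnt11, a secreted ligand, measured 4.06, 9.27 and 4.4 CPM in XEN and 121, 10.8, 8.42 and 56.5 CPM in iXEN, with iXEN 1 highest. Dkk2, a Wnt antagonist that DESeq2 called (adjusted p 0.0204), measured 0.318, 0.0825 and 0.334 CPM in XEN and 0.114, 119, 0.391 and 27.4 CPM in iXEN, with iXEN 2 and iXEN 9 high. Of the 14 retinoid genes tested 10 lay above zero (median 0.65). Crabp1, a retinoic acid binding protein that DESeq2 called (adjusted p 0.0104), measured 0.637, 0.055 and 0.393 CPM in XEN and 0.152, 124, 0.361 and 329.9 CPM in iXEN, again with iXEN 2 and iXEN 9 high.

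Imprinted and growth factor genes also showed no call in edgeR. Slc38a4, an imprinted amino acid transporter that DESeq2 called (adjusted p 1.36e-04), measured 0.147, 0 and 0.0982 CPM in XEN and 7.75, 24.4, 0.0602 and 13.5 CPM in iXEN, with iXEN 6 as low as the XEN libraries. Meg3, an imprinted noncoding RNA, measured 0.0735, 0.523 and 0 CPM in XEN and 0.038, 69.7, 0.0902 and 3.74 CPM in iXEN, with iXEN 2 highest. Igfbp2, a binding protein of insulin-like growth factors, measured 1.05, 6.44 and 197 CPM in XEN and 0.722, 0.418, 0.12 and 0.029 CPM in iXEN. Its groups did not overlap, and most of the XEN mean came from XEN 7. Dnmt3a, a DNA methyltransferase, measured 42.8, 34.3 and 55.9 CPM in XEN and 28.5, 29.9, 15.4 and 18 CPM in iXEN, with a log2 fold change of -0.94 (SE 0.35, 95% interval -1.75 to -0.14). Stat3, the transducer of LIF signals, measured 315, 170.2 and 191 CPM in XEN and 128, 139.9, 157 and 96.7 CPM in iXEN. Both genes lay lower in every iXEN library than in any XEN library, and neither passed the test (adjusted p 0.985 for both in edgeR). Pfkl, a subunit of the glycolytic enzyme phosphofructokinase, measured 85.1, 140.2 and 94.6 CPM in XEN and 218, 112, 275 and 399 CPM in iXEN. In cholesterol synthesis (21 tested), median -0.0040, the stress response (18 tested), median -0.19, and macrophage genes (4 tested), median 0.23, 0 members had an unadjusted p below 0.05. Of the 18 stress response genes, 14 were highest in XEN 1 and 10 lowest in XEN 7.

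Over all 39 lists, 0 of the 469 genes tested passed edgeR's test, and DESeq2 called 10 (2.13%), against 0.565% of all genes tested; the lists were chosen with earlier results of these data known, and nothing is read from this difference. Beyond those already named these were Hoxc4 of the Hox clusters, at 0.563, 0.11 and 0.0196 CPM in XEN and 5.47, 5.51, 0.241 and 15.2 CPM in iXEN, Igfbp6 and H2-Q4. Igfbp6, another growth factor binding protein, measured 0.171, 0.385 and 1.0 CPM in XEN and 0.494, 19, 0.271 and 83 CPM in iXEN. H2-Q4, a class I histocompatibility gene whose reads may be shared within its family, measured 20.0, 9.3 and 36.5 CPM in XEN and 3.04, 4.7, 3.22 and 3.3 CPM in iXEN. H2-Q4 did not overlap between the labels, with DESeq2's adjusted p at 0.00150 and edgeR's at 0.972. Hoxc4 and Igfbp6 were both highest in iXEN 9.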

How the data were processed

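mRNA-seq (TruSeq mRNA kit, per the labels) was analysed from the raw read count per gene that the authors deposited for each of 17 libraries, 24015 genes per library, with the 5 summary lines of HTSeq removed. Per the submitters' processing notes, the tools were FastQC 0.11.3, Trimmomatic 0.32, TopHat2 2.0.12 and HTSeq 0.6.1 on mm9; their order and settings, the annotation and strand handling were not stated in any source used here. Counts were tested with edgeR 4.0.16 (quasi-likelihood test, trimmed mean of M-values scaling, genes kept by filterByExpr with a minimum count of 10 and total of 15, Benjamini-Hochberg adjustment, threshold 0.05) in R 4.3.3. DESeq2 1.42.0 was an alternative.

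The comparison took the 4 iXEN and 3 XEN libraries in XEN medium alone, and the interaction all 14 XEN and iXEN libraries. The members, the 39 gene lists (656 of 657 symbols found) and the rules were chosen with earlier results of these data known. Genes were named by rule: called genes (none passed); always Gata4, Gata6, Sox17, Sox7, Pdgfra, Dab2, Pou5f1, Sox2, Klf4, Myc, Col1a1, Thy1, Xist and Ddx3y; up to 3 members of each list by smallest p; and the 6 genes of largest spread in each group, the 6 of smallest interaction p and the 10 with the highest mean CPM in each group. Ttr, Cubn, Lrp2, Nid1, Nanog, Postn, Ly6a, Foxa2, Ctse, Rab20 and the genes of smallest p were chosen after their values were seen. The p-values measure the spread between these libraries. Log2 CPM in correlations and principal components used a prior count of 2. Alternatives changed the size factors, the filter, the tool, the robust option, the replicate block and the libraries in the fit.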

Additional observations from a re-analysis of the deposited data

Results flagged for a closer look

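A gap test within the 4 iXEN libraries in XEN medium compared the highest or lowest library with the other 3. Chance alone marks about 1 in 20 groups, so some of these marks are due to it. The share of all genes tried that were marked is not given here, so the marks are a description only. Postn and Foxa2 were also chosen after their values were seen. iXEN 6 stood above the other iXEN libraries for Gata6 (551 CPM against 223 to 259), Dab2 (582 against 329 to 359) and Foxa2 (128 against 77.8 to 80.9), and below them for Gli3, a Hedgehog effector (1.29 against 9.15 to 12.8). iXEN 9 stood below for Sox17 (144 against 318 to 356) and Hnf4a (7.44 against 13.6 to 14.3) and above for Sox2 (48.2 against 0 to 0.0738). iXEN 2 stood above for Postn (189 against 0 to 0.0579), Plau, a plasminogen activator (14.4 against 0.874 to 1.30), and Xlr5b (0.0246 against 0 in each of the others, a value below 3 counts). iXEN 1 stood above for Cdh1 (10.9 against 0.492 to 0.692) and the stress gene Atf3 (54.3 against 43.0 to 43.4).

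Outside the comparison, some libraries in ESC medium held transcripts above the MEF range. Xist measured 716 CPM in XEN 7, 9.53 CPM in iXEN 1 and 2239 CPM in iXEN 9, against 0.348 to 0.501 CPM in MEF. In the library labelled XEN 1 in ESC medium Pou5f1 measured 8.99 CPM (MEF 0.0295 to 0.116) and Sox2 7.25 CPM (MEF 1.66 to 3.80).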

How the results depend on the processing

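The count of genes called between iXEN and XEN in XEN medium was 0 with other size factors, without the filter on low counts, in a robust fit, with all 17 libraries in the fit, without iXEN 2 and 9 (an alternative chosen after seeing the data), and 0 to 0 when each library was left out. It was 75 with DESeq2; the cause was not tested. Genes at an unadjusted p below 0.05 ranged from 316 without iXEN 9 to 1194 without iXEN 1. The interaction gave 466 calls with DESeq2 and 0 to 0 with each library left out. With the replicate number as a block the counts were 0 for the comparison and 1 for the interaction. Deviations of same-numbered libraries in the 2 media correlated at over 0.1 for 6 of 7 pairs (0.132 to 0.643, all 3 XEN pairs among them) and at -0.0623 for iXEN 9, and those of the 2 pairs within XEN medium at -0.275 and -0.0369. Pairing was accepted only where every pair was over 0.1, so the block was not used; 3 of the 7 libraries correlated best with their own number. Of 177 named genes, 65 changed the sign of the estimate under some alternative, none of them while called; 27 genes passed the threshold under DESeq2 alone. The common biological coefficient of variation of the 7 libraries was 0.680, and 3 counts, the limit that a zero allows, came to at most 0.114 CPM in them.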
